A study of Mus musculus with 11 samples.

Results

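PU.1 occupancy was measured across the 4 Hox gene clusters of the mouse in leukemic and normal erythroid cells. The Hox genes were the 39 genes of the mm9 annotation named Hox with a cluster letter from a to d and a number, out of 22271 protein-coding genes, and each cluster was taken from its first to its last gene with 20 kb on each side. The regions covered 1308 of the 5309781 windows of 500 bp in the genome. The HoxA region held 11 genes (chr6:52085366-52230874), the HoxB region 10 (chr11:96035630-96249570), the HoxC region 9 (chr15:102731534-102887274) and the HoxD region 9 (chr2:74486367-74623200).

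ChIP-Seq recovers fixed chromatin with an antibody and sequences the attached DNA, and input DNA from the same kind of chromatin without immunoprecipitation serves as its background. The antibody was anti-PU.1 (T-21), and PU.1 is the ETS-family transcription factor encoded by Sfpi1. Murine erythroleukemia (MEL) cells, a leukemic erythroblast line (labelled clone 4), carried Gata-1 fused to the ligand-binding domain of the estrogen receptor (ER) and grew in serum with puromycin. Normal erythroid progenitors grown out of embryonic stem (ES) cells, called ES-EP, were kept in serum-free medium with dexamethasone, erythropoietin, IGF-1 and SCF, and the labels name no transgene for them. The letters A and B of the ChIP labels were read as chromatin preparations, and the numbers after them as 2 libraries of each. No label states this. The libraries of a letter were summed, so that n = 2 preparations in each cell type. The MEL group is 1 line, and the labels do not say whether its preparations came from separate cultures. Tests between the cell types thus measure the spread between these preparations. Tests against input used summed reads and cover counting error only. Preparations had between 5697937 and 7095855 reads, with 4278560 input reads from MEL cells (1 library) and 7488885 from ES-EP (2 libraries). PU.1 ChIP was far above input upstream of Sfpi1 itself in every preparation. In the highest 500 bp window within 20 kb of that gene, at -11796 bp from the gene start, MEL cells had 14.9 (A) and 43.4 (B) RPM (reads in each 1000000 of the library) against 1.17 in input, and ES-EP had 58.2 and 41.3 against 2.40.

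Hox genes encode homeodomain transcription factors that specify position along the body axis, and their order on the chromosome follows the order in which they are expressed. Groups 1 to 4 lie at the 3′ side of a cluster and act towards the head, and groups 9 to 13 lie at the 5′ side and act towards the tail. Polycomb complexes keep the clusters silent and MLL complexes keep them active, and several HoxA and HoxB genes act in blood stem cells and leukemia. PU.1 binds DNA through its ETS domain at a purine-rich sequence with the core GGAA.

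In the 4 regions 8 windows were called above input in MEL cells, ES-EP or both. The share called was 3.64% of windows tested in MEL cells and 1.65% in ES-EP, beside 3.31% and 3.02% over the genome. Sequences at 6 of these windows are shown first. They are from the 5 with the lowest p against input and from Gm16258, with the lowest p between cell types. Each is 200 bases of the mm9 plus strand around the highest point of the summed ChIP reads of both cell types, and capitals mark GAGGAA or AGGAAGT on either strand, the words of the PU.1 motif that were searched. The pair of words overlaps in GAGGAAGT.
Past the 3′ end of Hoxc4, chr15:102883731-102883930: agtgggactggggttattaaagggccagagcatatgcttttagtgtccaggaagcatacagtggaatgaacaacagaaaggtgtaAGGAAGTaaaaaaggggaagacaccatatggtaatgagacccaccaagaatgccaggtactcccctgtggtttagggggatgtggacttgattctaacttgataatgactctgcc
Intron of Hoxc6, chr15:102833601-102833800: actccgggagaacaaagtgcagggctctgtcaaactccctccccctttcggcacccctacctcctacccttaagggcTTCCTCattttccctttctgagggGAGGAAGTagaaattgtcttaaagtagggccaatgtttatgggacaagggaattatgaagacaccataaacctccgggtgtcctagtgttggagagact
Gm16258, between Hoxc12 and Hoxc11, chr15:102776091-102776290: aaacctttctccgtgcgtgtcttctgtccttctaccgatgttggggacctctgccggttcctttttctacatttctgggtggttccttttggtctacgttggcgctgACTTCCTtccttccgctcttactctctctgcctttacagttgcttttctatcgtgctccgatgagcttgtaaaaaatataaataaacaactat
Before the start of Hoxc9, chr15:102806411-102806610: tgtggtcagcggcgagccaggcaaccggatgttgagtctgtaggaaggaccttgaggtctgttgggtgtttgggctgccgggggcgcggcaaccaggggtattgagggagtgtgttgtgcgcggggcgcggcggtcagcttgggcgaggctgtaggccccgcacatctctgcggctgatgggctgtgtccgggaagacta
Intron of Hoxc6, nearer the start, chr15:102829701-102829900: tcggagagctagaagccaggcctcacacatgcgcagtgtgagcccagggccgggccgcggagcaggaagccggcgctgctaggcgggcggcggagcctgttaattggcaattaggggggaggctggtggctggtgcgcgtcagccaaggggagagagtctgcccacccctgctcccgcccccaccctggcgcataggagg
First exon of Hoxa4, chr6:52141441-52141640: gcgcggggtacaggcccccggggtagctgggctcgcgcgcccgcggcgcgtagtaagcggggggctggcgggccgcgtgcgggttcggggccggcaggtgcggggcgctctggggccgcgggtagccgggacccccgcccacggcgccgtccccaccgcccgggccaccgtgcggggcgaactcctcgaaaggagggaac

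AGGAAGT was found in 3 of these 6 sequences and in neither of the other two, 12 bp from the highest point past Hoxc4, 5 bp from it in the Hoxc6 intron and 10 bp from it in Gm16258. The word lies in 4.80% of 1279204 genomic stretches of 200 bp and was chosen after these sequences had been read, so that the matches are a description. The stretch in the Hoxc6 intron also carried the full word GAGGAAGT, which 1.20% of the genomic stretches hold, and a second GAGGAA, where 18.2% hold at least 1. No match was found in the sequences before Hoxc9, nearer the Hoxc6 start and in Hoxa4, which were rich in GC (65%, 69.5% and 81%), whereas the 3 sequences with a match had 45.5%, 50% and 45% GC.

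PU.1 ChIP did not pass the threshold over input at any of the 39 Hox gene starts, in MEL cells or in ES-EP. Reads were counted in 1 kb centred on each start and compared with input by an exact binomial test on the summed preparations, with Benjamini-Hochberg adjustment over all starts with a read and a threshold of 0.05. Over all protein-coding starts 16.2% were called above input in MEL cells (3460 of 21325), with 11.7% in ES-EP (2513 of 21398). Among starts with ChIP plus input reads in the range of the Hox starts, 3.76% were called in MEL cells (580 of 15426). In ES-EP this share was 2.33% (363 of 15595). That range counts the ChIP reads themselves, so these shares are a description. At an unadjusted p below 0.05, 3 of 39 Hox starts were above input in MEL cells (beside 25.4% of all starts tested), with 1 in ES-EP (beside 18.3%). The summed ChIP reads at a Hox start ranged from 3 to 41 in MEL cells (median 12, against 16 for all starts) and from 1 to 40 in ES-EP (median 12, against 16). The ratio of ChIP to input, with depth scaled and 1 read added to both, had a median of 1.29 over the Hox starts and 1.35 over all starts in MEL cells, and 1.12 over both sets in ES-EP. Both preparations lay above input at 21 of 39 Hox starts in MEL cells and at 18 in ES-EP (53.8% and 46.2%), beside 53% and 45.6% of all starts. The summed ChIP reads lay above depth-scaled input at 35 of 39 Hox starts in MEL cells (89.7%, beside 71.9% of all starts) and at 22 in ES-EP (56.4%, beside 64.4%), and these shares were not tested.

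Few reads limit what these starts can show, since the MEL input had at most 3 reads at 26 of the 39 starts and none at 7. The share of starts called differed with base composition. Among the 4411 starts with the least GC (up to 45.4%), 0.862% were called in MEL cells, against 42.2% of the 4512 starts with the most (over 62.7%). For ES-EP these shares were 0.718% and 22.6%. The Hox starts had a median GC content of 55.9%, against 54.8% for all starts. How far depth and GC content set the count of 0 was not tested.

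**Figure D1:**
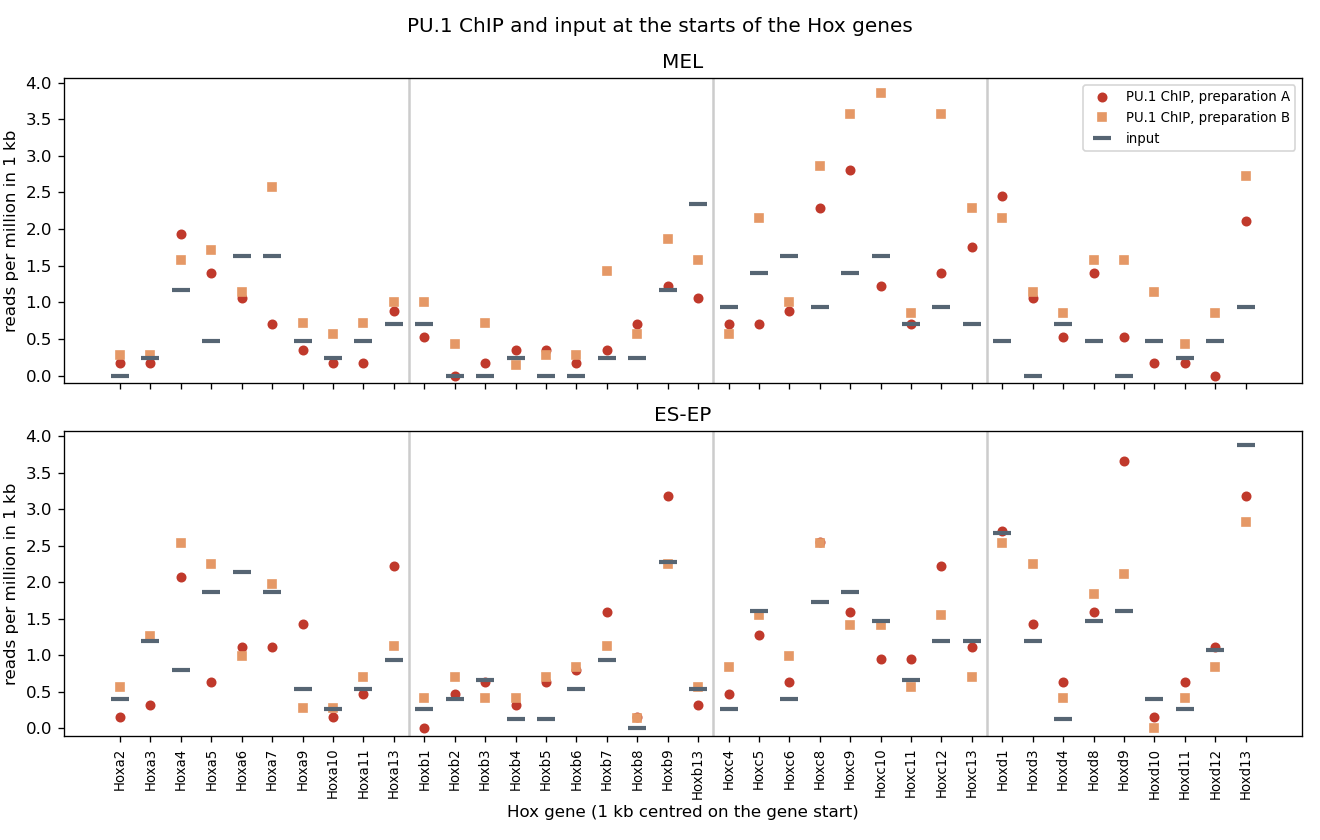
RPM in 1 kb around the starts of the Hox genes named on the axis for MEL cells in the top panel and for ES-EP in the bottom one, with circles for ChIP preparation A, squares for preparation B and grey bars for input, and vertical lines between clusters. ChIP stays below 4 RPM at every start plotted. Input lies above both preparations at several starts in each cell type, such as Hoxb13 in MEL cells and Hoxd13 in ES-EP.

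The HoxD starts came nearest to the threshold in MEL cells. Hoxd1, the most anterior gene of the cluster, had 14 (A) and 15 (B) reads against 2 of input, a ratio of 3.37, or 4.89 without the added read (95% counting interval 1.24 to 42.3), with an adjusted p of 0.0671 (exact binomial test). Hoxd3 had 6 and 8 reads and Hoxd9 had 3 and 11, both against an input of 0, which gives at least 1.57-fold more ChIP than input with a floor of 3 reads (adjusted p = 0.118 for both, exact binomial test). In ES-EP these starts had ratios with 1 read added of 0.959 (Hoxd1), 1.46 (Hoxd3) and 1.68 (Hoxd9), and their input there was 20, 9 and 12 reads. Summed over its 9 starts, HoxD had ChIP over input of 2.25 (A) and 3.33 (B) in MEL cells, with 1.19 and 1.04 in ES-EP, and the MEL value rests on 16 input reads. The HoxD start with the lowest ratio was Hoxd12 in MEL cells (0 and 6 reads against 2, ratio 0.787, or 1.01 without the added read, 0.181 to 10.3) and Hoxd10 in ES-EP (1 and 0 reads against 3, ratio 0.280, or 0.187 without the added read, 0.0036 to 2.32). Hoxd4 had the highest in ES-EP (4 and 3 reads against 1, ratio 2.24, or 3.92 without the added read, 0.503 to 177).

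Within HoxA the highest start in ES-EP was Hoxa4, with 13 (A) and 18 (B) reads against 6 of input (ratio 2.56, adjusted p = 0.105, exact binomial test), and in MEL cells Hoxa4 had 11 and 11 against 5 (ratio 1.29). Hoxa6 had the lowest ratio of the cluster in both cell types, 0.632 in MEL cells (6 and 8 reads against 7), with 0.494 in ES-EP (7 and 7 reads against 16). Hoxa9 and Hoxa10, posterior genes that act in blood progenitors and myeloid leukemia, had few reads. Hoxa9 had 2 and 5 reads against 2 in MEL cells (ratio 0.899) and 9 and 2 against 4 in ES-EP (1.34). Hoxa10 had 1 and 4 reads against 1 in MEL cells (1.01) and 1 and 2 against 2 in ES-EP (0.746), and a difference between the cell types was not detectable at this depth.

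HoxB had the fewest reads at its starts, 28 (A) and 58 (B) over 10 genes in MEL cells, with 51 and 54 in ES-EP. Hoxb4, which promotes the self-renewal of blood stem cells when overexpressed, had 2 and 1 reads against 1 of input in MEL cells (ratio 0.675) and 2 and 3 against 1 in ES-EP (1.68). Hoxb3 had the highest ratio in MEL cells (1 and 5 reads against 0, ratio 2.36) and Hoxb13 the lowest (6 and 11 against 10, ratio 0.552). In ES-EP Hoxb5 had the highest (4 and 5 reads against 1, ratio 2.80, or 5.04 without the added read, 0.698 to 221) and Hoxb1, Hoxb3 had the lowest (0.746 each), with 0 and 3 reads against 2 at Hoxb1 and 4 and 3 against 5 at Hoxb3. Without the added read the counting interval of Hoxb4 ran from 0.081 to 53.1 in MEL cells, so that no order of these starts could be read.

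The HoxC starts had the most ChIP reads in MEL cells, 71 (A) and 145 (B) over 9 genes against 44 of input. Hoxc8, which patterns the thorax, had 13 and 20 reads against 4, and Hoxc12 had 8 and 25 against 4, and these share the highest ratio of the cluster (2.29 each). Hoxc6 had the lowest in MEL cells (5 and 7 reads against 7, ratio 0.548). In ES-EP the highest was Hoxc4 (3 and 6 reads against 2, ratio 1.87, or 2.52 without the added read, 0.521 to 24.0) and the lowest Hoxc13 (7 and 5 against 9, ratio 0.728). The groups were formed by gene number, and each start is the outermost annotated end of its gene. The counted Hoxa3 start thus lies between those of Hoxa6 and Hoxa7, so the groups are no strict order along the clusters. Starts of groups 1 to 4 had ChIP over input, by summed reads, of 2.11 (A) and 2.13 (B) in MEL cells. Groups 5 to 8 had 1.16 and 1.80, and groups 9 to 13 had 1.15 and 2.13. In ES-EP these values were 1.12 and 1.54, 0.953 and 1.18, and 1.25 and 0.912. All protein-coding starts had 1.69 and 2.79 in MEL cells by this measure, with 1.78 and 1.09 in ES-EP. Preparation A of MEL cells was highest in groups 1 to 4, whereas preparation B was alike in groups 1 to 4 and 9 to 13, so the place of groups 9 to 13 differed between preparations. Groups 1 to 4 lay above groups 5 to 8 by summed reads in all 4 preparations, but not by the median ratio of single starts (1.32 against 1.52 in MEL cells, 1.28 against 1.33 in ES-EP), and neither order was tested.

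Other choices of the counted stretch brought single Hox genes past the threshold. With 250 bp on each side Hoxa4 was called in ES-EP (17 reads against 0, adjusted p = 0.0086, exact binomial test), beside 9.71% of all starts. With at least 10 reads Hoxd1 was called in MEL cells (adjusted p = 0.0490, beside 25.1% of starts), and without preparation A Hoxd9 and Hoxc12 were (adjusted p = 0.0386 and 0.0294, exact binomial test, beside 24.5%). With 2 kb on each side of the start, Hoxc6 was called in both cell types, with 128 ChIP against 16 input reads in MEL cells (adjusted p = 0.00054) and 97 against 29 in ES-EP (adjusted p = 0.0185, exact binomial test). Hoxc5, Hoxb2, Hoxb5, Hoxd8 and Hoxd9 were called in MEL cells as well, 6 of 39 Hox starts beside 16.1% of all starts. When each annotated transcript start was counted, Hoxd8 was called in MEL cells at starts 290 bp (13 and 13 reads against 1, adjusted p = 0.0400) and 537 bp into the gene (14 and 20 reads against 1, adjusted p = 0.0071, exact binomial test) and Hoxc4 in ES-EP at a start 15459 bp into the gene (20 and 18 reads against 5, adjusted p = 0.00714).

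Across the regions in windows of 500 bp with at least 10 reads, windows called above input lay in HoxC in MEL cells and in HoxC and HoxA in ES-EP. For MEL cells 6 of 165 windows tested in the 4 regions were called, 3.64%, beside 3.31% of all windows in the genome. All 6 were among the 78 tested in HoxC (7.69%), and none of the 30 in HoxA, 29 in HoxB and 28 in HoxD was called. More of the HoxC windows had enough MEL reads to be tested, 25% against 10.3% in HoxA, 6.76% in HoxB and 10.2% in HoxD. The median ratio of the windows tested, with 1 read added, was 1.26 in HoxC and 1.69 in each of the other clusters. How far read number set where the calls lay was not tested. In ES-EP 3 of 182 were called, 1.65%, beside 3.02% of all windows, namely 2 of 65 in HoxC and 1 of 37 in HoxA. No window was called below input. The shares over the 4 regions were thus close to or under that of the genome, and the windows are described one at a time, with ratios taken without the added read. With at least 20 reads a window in Hoxd3 was called in MEL cells as well (adjusted p = 0.0322, exact binomial test). One in HoxD was called in ES-EP (adjusted p = 0.0396, exact binomial test). Without preparation A windows of HoxA, HoxB and HoxD were called in MEL cells. Calls within HoxC depend on such choices too. The 6 of MEL cells became 3 on a grid moved by 250 bp and 0 when windows with at least 1 read were tested.

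The window past Hoxc4 was the one called in both cell types (chr15:102883501-102884000). It lay between genes, 34383.5 bp from the Hoxc4 start to its centre, and its stretch with AGGAAGT is the first sequence printed above. ES-EP libraries had 6.80 and 6.10 RPM in the A libraries and 1.77 and 4.13 in the B libraries, against 0.820 and 0 in the input libraries. MEL libraries had 1.95 and 3.84 in A and 4.75 and 3.06 in B, against 0.701 in input. Every ChIP library lay above every input library in both cell types. Summed, ES-EP had 64 ChIP and 2 input reads, a ratio of 17.9 (95% counting interval 4.76 to 151, adjusted p = 2.5e-08), and MEL cells had 44 and 3, a ratio of 4.95 (1.59 to 24.9, adjusted p = 0.0480, exact binomial test). With 1 read per position and strand the MEL adjusted p was 0.0722, and on a grid moved by 250 bp no window here was called in MEL cells.

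A second window lay in an intron of Hoxc6, a gene of the middle of the cluster (chr15:102833501-102834000, centre 5062.5 bp after the start), and held the word GAGGAAGT and 3 copies of GAGGAA. MEL libraries had 4.87 and 4.67 RPM in A and 2.56 and 3.53 in B, against 0.701 in input. ES-EP libraries had 2.13 and 1.53 in A and 0.443 and 1.65 in B, against 0 and 0.594. The MEL libraries all lay above input, whereas in ES-EP a library of preparation B lay below an input library. The summed reads were 49 against 3 in MEL cells (ratio 5.51, 1.78 to 27.6, adjusted p = 0.0192) and 20 against 3 in ES-EP (3.73, 1.11 to 19.6, adjusted p = 0.304, exact binomial test).

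The third window lay between Hoxc12 and Hoxc11 (chr15:102776001-102776500), across the exon boundary of Gm16258, a transcript from the opposite strand that RefSeq lists as a synonym of Hotair, the long noncoding RNA known for its link with Polycomb repression. MEL cells had 2.63 (A) and 2.58 (B) RPM against 0.234 in input, 33 against 1 reads, a ratio of 11.1 (1.86 to 453, adjusted p = 0.0307). ES-EP had 0.955 and 0.705 against 0.401, 11 against 3 reads, a ratio of 2.05 (0.542 to 11.5, adjusted p = 0.874, exact binomial test). In MEL cells these 3 windows were called from either preparation alone, the other 3 from preparation B but not from A, in which they had fewer than the 10 reads needed.

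The other windows called in MEL cells lay near the starts of Hoxc9 and Hoxc6. Gm20398, another annotated gene, spans the stretches of Hoxc9 and Hoxc6. The window holding the Hoxc9 start (chr15:102806501-102807000) had 9 (A) and 18 (B) reads and one 880.5 bp after it (chr15:102807501-102808000) had 6 and 18, both against an input of 0, which gives at least 3.04-fold and 2.70-fold more ChIP than input with a floor of 3 reads (adjusted p = 0.0187 and 0.0384, exact binomial test). In ES-EP these windows had 8 and 5 reads against 8, and 7 and 5 against 6. Neither Hoxc9 call was kept on the moved grid. The window 1062.5 bp after the Hoxc6 start (chr15:102829501-102830000) had 5 and 36 reads against 2 in MEL cells (ratio 6.91, 1.80 to 59.0, adjusted p = 0.0213). In ES-EP it had more ChIP reads in A, 18, and 23 in B, but against 15 of input, and its ratio was 1.53 (0.83 to 2.98).

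In ES-EP the called windows beside the one past Hoxc4 were near the Hoxc6 and Hoxa4 starts. The window next to the last one in Hoxc6 (chr15:102829001-102829500) had 14 (A) and 8 (B) reads against 1, a ratio of 12.3 (1.99 to 508, adjusted p = 0.0257), and in MEL cells 6 and 31 against 3 (adjusted p = 0.130, exact binomial test). The window over the first exon of Hoxa4 (chr6:52141501-52142000), which also lies within the annotated Hoxa3 and 2700086A05Rik, had 7 and 10 reads against 0, at least 3.17-fold more than input with a floor of 3 reads (adjusted p = 0.0237), and in MEL cells 11 and 5 against 1 (adjusted p = 0.385, exact binomial test). The Hoxa4 window was called without preparation A and the Hoxc6 window without preparation B, and each had fewer than 10 reads in the other preparation with input.

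**Figure D2:**
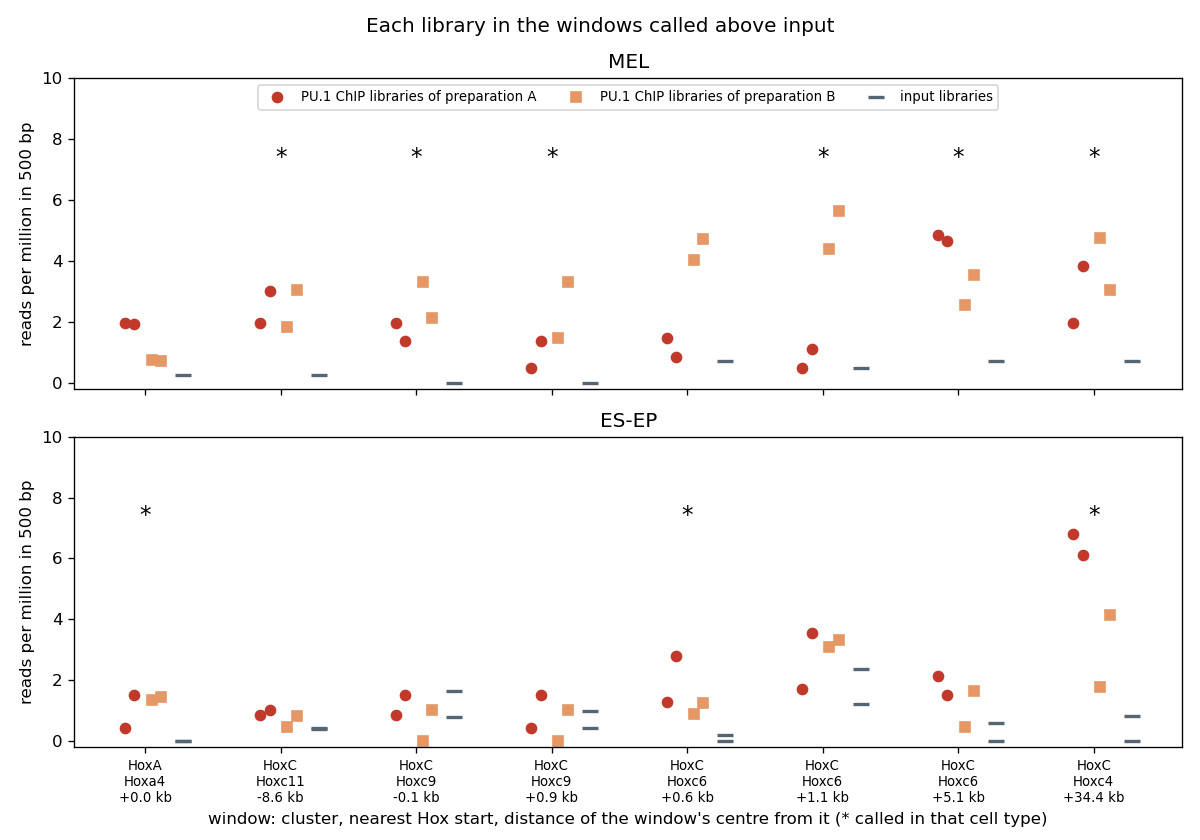
RPM in each library for the 8 windows called above input in either cell type, with circles and squares for the libraries of ChIP preparations A and B, grey bars for input libraries and an asterisk where the window was called. The window 34.4 kb after the Hoxc4 start is called in both panels, with all ChIP libraries above input.

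**Figure D3:**
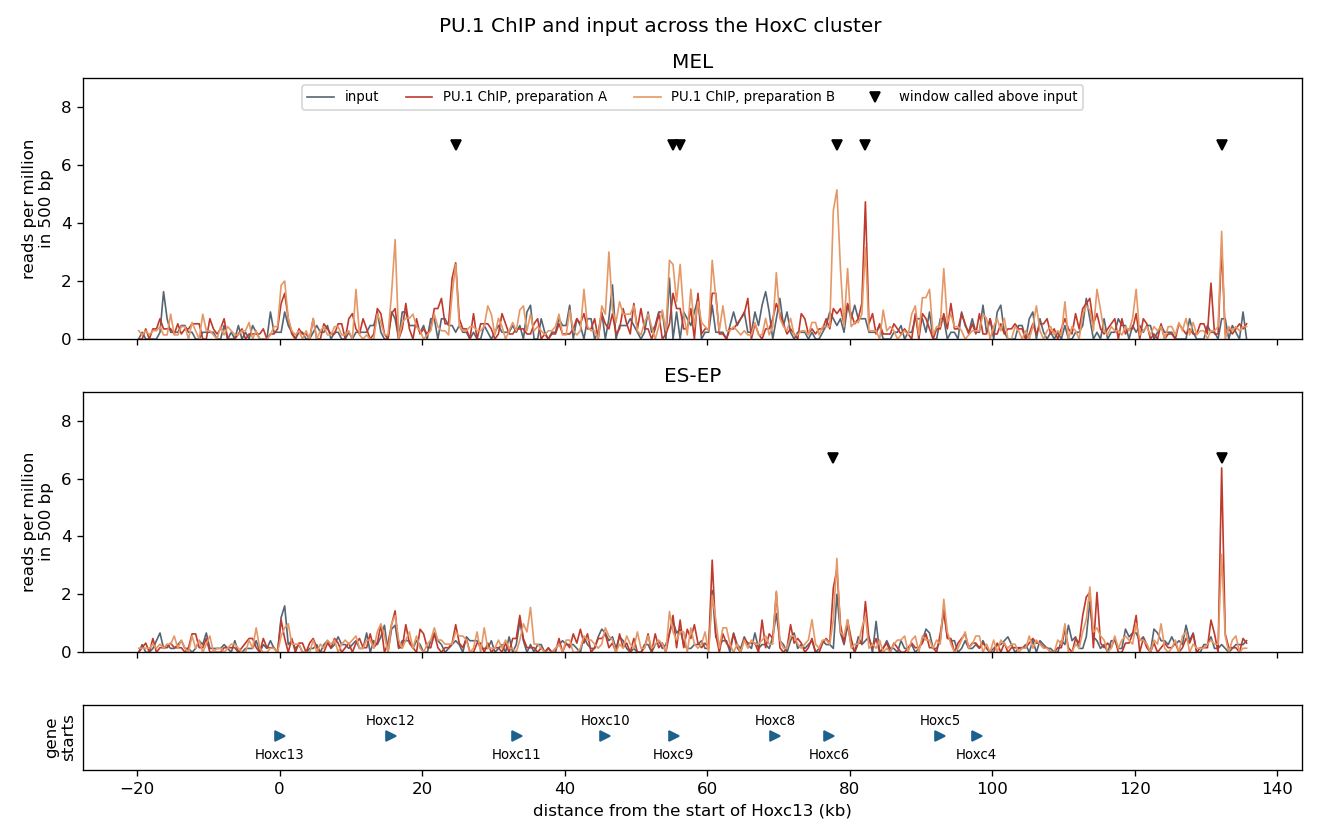
RPM in 500 bp windows across HoxC against the distance from the start of Hoxc13 in kb, for ChIP preparations A (red) and B (orange) and input (grey), in MEL cells (top) and ES-EP (middle), with black triangles over called windows and the gene starts below. The highest window of ES-EP lies past Hoxc4 and reaches 6.36 RPM in preparation A, and that of MEL cells lies in Hoxc6 and reaches 5.15 in preparation B.

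Outside HoxC the Hoxa4 window was the one called. By number of ChIP reads, the leading windows of the other clusters stayed short of the threshold. In MEL cells these were a window after the Hoxa11 start with 6 (A) and 13 (B) reads against 0 (adjusted p = 0.100), one within Hoxb3 with 5 and 15 against 1 (adjusted p = 0.284) and one in Hoxd3 with 10 and 14 against 1 (adjusted p = 0.137, exact binomial test). In ES-EP they were a window in Hoxa10 with 15 and 14 reads against 14, one in Hoxb6 with 11 and 10 against 5 and one in Hoxd9 with 24 and 13 against 12. These ES-EP windows had 5 to 14 input reads, and none had an adjusted p below 0.547 (exact binomial test). Windows with fewer ChIP reads came as near the threshold or nearer, such as the same Hoxd9 window in MEL cells (4 and 15 reads against 0, adjusted p = 0.100) and another HoxD window of ES-EP (13 and 12 reads against 4, adjusted p = 0.183, exact binomial test).

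MEL cells and ES-EP were then compared over their preparations, to ask whether PU.1 reads at the Hox genes differed between leukemic and normal cells. No Hox start passed the threshold (limma with voom, Benjamini-Hochberg adjustment over 22271 starts, lowest adjusted p of a Hox start 0.795), beside 0% of all starts. At an unadjusted p below 0.05 there were 1353 starts (6.08%), 3 of them among the 39 Hox starts, and limma on log2 RPM plus 0.5 also called 0 starts, with 1393 at an unadjusted p below 0.05. The log2 differences of MEL over ES-EP at Hox starts had a median of -0.18, beside -0.22 for all starts, and ranged from -1.78 to 2.26.

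The 3 lowest p values belonged to Hoxd9, Hoxb1 and Hoxb13. Hoxd9 had 0.527 (A) and 1.57 (B) RPM in MEL cells, with 3.66 and 2.11 in ES-EP, a log2 difference of -1.48 ± 0.63 (SE, limma adjusted p = 0.795). Hoxb1, the most anterior HoxB gene, had 0.527 and 1.00 in MEL cells, with 0 and 0.423 in ES-EP (2.02 ± 0.94). The Hoxb1 difference was 0.73 without ES-EP preparation A, 3.36 without ES-EP preparation B and 0.87 by limma on log2 RPM plus 0.5. That of Hoxd9 was -0.81 without MEL preparation A and -2.24 without MEL preparation B. Hoxb13, at the posterior end, had 1.05 and 1.57 in MEL cells, with 0.318 and 0.564 in ES-EP (1.43 ± 0.68), but the MEL input was 2.34, above both ChIP preparations. The preparations of the cell types did not overlap at these 3, which were picked by p. Over the Hox starts they did not overlap at 6 of 39 with MEL cells higher and at 12 with ES-EP higher (15.4% and 30.8%), beside 13% and 20.1% of all starts, and neither share was tested. The 200 bases before these starts, on the strand of the gene, hold the following letters, with GAGGAA and AGGAAGT in capitals on either strand.
Hoxd9, chr2:74535537-74535736: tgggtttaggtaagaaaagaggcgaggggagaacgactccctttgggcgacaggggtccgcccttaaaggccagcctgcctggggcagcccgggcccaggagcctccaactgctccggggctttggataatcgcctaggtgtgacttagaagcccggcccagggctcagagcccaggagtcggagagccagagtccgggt
Hoxb1, chr11:96226866-96227065: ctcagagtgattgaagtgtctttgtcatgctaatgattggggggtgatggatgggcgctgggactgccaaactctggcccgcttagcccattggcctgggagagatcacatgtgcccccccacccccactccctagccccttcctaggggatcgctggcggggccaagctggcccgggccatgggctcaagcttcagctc
Hoxb13, chr11:96055430-96055629: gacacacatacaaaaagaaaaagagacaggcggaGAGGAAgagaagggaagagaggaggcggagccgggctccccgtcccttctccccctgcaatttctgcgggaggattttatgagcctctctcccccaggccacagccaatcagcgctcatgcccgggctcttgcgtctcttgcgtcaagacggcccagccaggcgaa
GAGGAA was found in that of Hoxb13, and 18.9% of all 22271 such stretches hold it.

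By cluster, the median log2 difference at starts was -0.23 in HoxA (4 of 11 above 0), -0.66 in HoxB (3 of 10), 0.22 in HoxC (7 of 9) and -0.31 in HoxD (2 of 9). These signs depend on the scaling and on preparation A, since 16 of 39 Hox starts were above 0 here, 22 with median-ratio scaling and 21 without MEL preparation A. In these settings HoxC was above 0 (0.45 and 0.58) and HoxB below (-0.36 and -0.15), while HoxA was -0.03 and 0.12 and HoxD -0.06 and -0.16. HoxC lies on chromosome 15, of which MEL input had 1.29 times the share of reads that ES-EP input had. With the chromosome's input ratio taken off, the HoxC median was -0.15 (3 of 9 above 0), the medians of HoxA, HoxB and HoxD were -0.24, -0.64 and -0.10, and no Hox start was called.

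**Figure D4:**
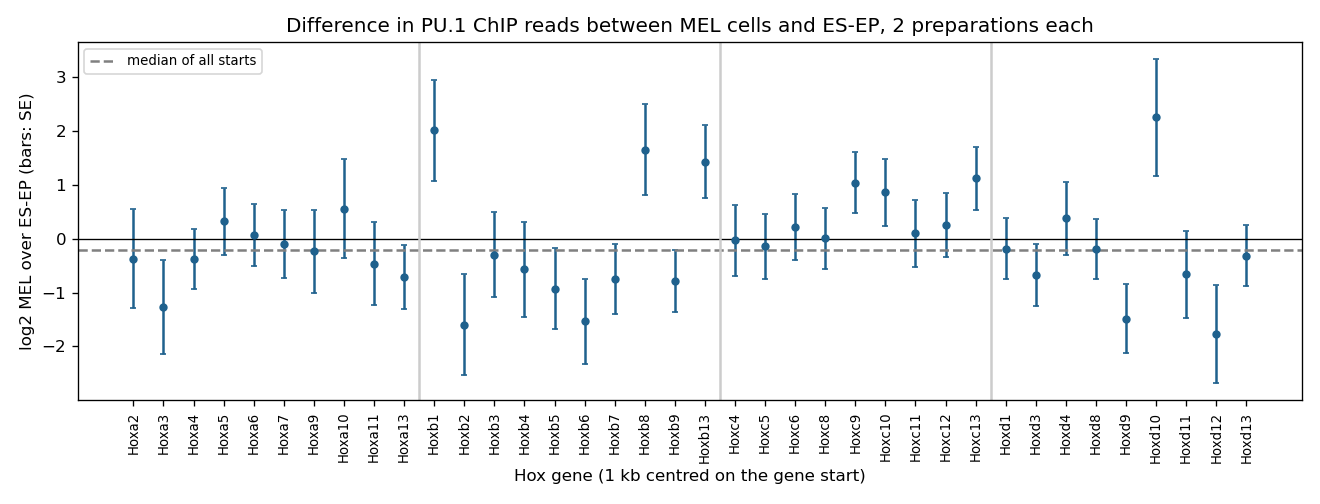
Log2 difference in ChIP reads of MEL cells over ES-EP in 1 kb around the Hox starts named on the axis, with bars of 1 SE from limma over 2 preparations a cell type, vertical lines between clusters and a dashed line at the median of all starts, -0.22. The highest value is that of Hoxd10 (2.26) and the lowest that of Hoxd12 (-1.78), starts with few reads.

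Of the Hox windows of 500 bp, 99 had at least 20 ChIP reads, and none differed between the cell types (limma with voom, lowest adjusted p 0.490), beside 0.241% of 65011 windows in the genome. At an unadjusted p below 0.05, 3 of the 99 Hox windows differed, beside 6.46% of the windows in the genome, and all 3 were higher in MEL cells, beside 2.89%. These were the window in Gm16258 (log2 difference 1.61 ± 0.63 SE, limma adjusted p = 0.490), the one in the Hoxc6 intron with GAGGAAGT (1.34 ± 0.62), which were 1.23 and 0.97 with the chromosome's input ratio taken off, and one in Hoxd3 (1.59 ± 0.77), which had 1.76 and 2.00 RPM in MEL cells, with 0.955 and 0.423 in ES-EP. The window past Hoxc4 had a log2 difference of -0.43 ± 0.64. By the rule of over 5-fold more depth-scaled reads in 1 cell type, which is no test, 2 of 99 Hox windows (2.02%) were higher in MEL cells and none in ES-EP, beside 4.84% of the windows in the genome. One adjoins the Gm16258 window (12 and 11 MEL reads against 2 and 2 of ES-EP) and the other lies in Hoxc9 (9 and 9 MEL reads against 2 and 1), where MEL input had 6 reads. Both lie on chromosome 15, of which MEL input had 1.29 times the share of ES-EP input, and the rule does not take this off.

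Over whole clusters with their flanks, PU.1 ChIP exceeded input in MEL cells in both preparations of all 4 clusters. The ratio of ChIP to input in RPM was 1.16 (A) and 1.57 (B) in HoxA, 1.27 and 1.32 in HoxB, 1.26 and 1.51 in HoxC and 1.31 and 1.63 in HoxD, with means of 1.36 ± 0.29, 1.30 ± 0.03, 1.38 ± 0.17 and 1.47 ± 0.23 (SD, n = 2). In ES-EP it was 1.01 and 1.11 in HoxA, 0.972 and 1.14 in HoxB, 1.16 and 1.21 in HoxC and 1.09 and 1.09 in HoxD. The median over bins of 100 kb was 1.01 in MEL cells, with 90% of bins from 0.791 to 1.34, and the cluster means lay above 95.8% (HoxA), 93.1% (HoxB), 96.4% (HoxC) and 98.2% (HoxD) of 25065 bins. In ES-EP they lay above 77.1%, 75.9%, 93.0% and 83.0% of 25206 bins. The regions also had more GC than most of the genome, 47.8% to 48.5% against a median of 41.2% over 100 kb bins, above 91.3% to 93.4% of them, and the part of GC content in these ratios was not tested. With 2 preparations a group the cluster ratios were not tested.

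**Figure D5:**
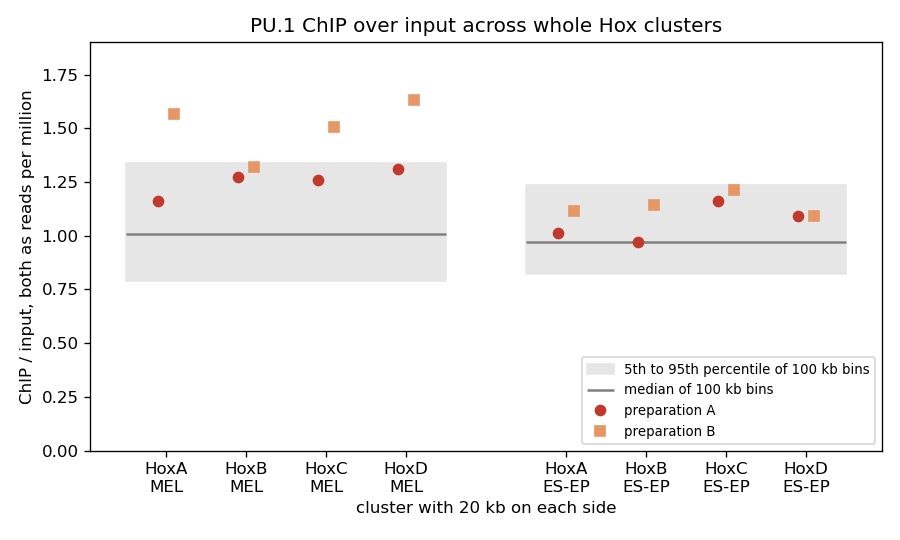
Ratio of ChIP to input in RPM over each cluster with 20 kb on each side, for preparation A (circles) and B (squares) with MEL cells on the left, ES-EP on the right, the median of 100 kb bins of the genome (line) and their 5th to 95th percentile (grey). Preparation B of MEL cells lies above the grey band in HoxA, HoxC and HoxD, and every ES-EP value lies inside it. The band was drawn once for each cell type and not for each preparation.

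The share of input reads over the clusters differed between the input libraries of the cell types, and input is the denominator of the ratios above. The share of input reads in MEL cells over that in ES-EP was 0.688 in HoxA (95% exact counting interval 0.589 to 0.801), where chromosome 6 as a whole had 1.00, and 0.673 in HoxD (0.577 to 0.783), where chromosome 2 had 0.863. It was 0.868 in HoxB (0.763 to 0.986, chromosome 11 0.987) and 1.20 in HoxC (1.07 to 1.35, chromosome 15 1.29). ChIP reads gave 0.883 in HoxA, 1.06 in HoxB, 1.39 in HoxC and 0.908 in HoxD. The ES-EP input libraries differed in HoxA, where the ratio of input was 0.842 against the first library alone and 0.632 against the second. The intervals cover counting error only, and MEL cells had a single input library. Per kb, ES-EP input over the regions was 1.22 to 1.66 times the genome mean, and MEL input 1.00 to 1.08 times in HoxA, HoxB and HoxD and 1.99 times in HoxC.

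Genes that act with or on the Hox clusters were described from lists chosen with earlier results of these data known. Each list is too short to read its count against the share of all starts called. Of the 16 Polycomb genes, whose products silence Hox clusters, 6 starts were called above input in MEL cells, with 3 in ES-EP, beside the 16.2% and 11.7% of all starts, with median ratios of 2.39 and 1.26. Eed, a core subunit of the complex that methylates H3K27, had 21 (A) and 60 (B) reads against 5 in MEL cells and 113 and 67 against 24 in ES-EP (adjusted p = 0.00010 and 3.5e-13), and Ring1, an H2A ubiquitin ligase, had 34 and 107 against 7 and 142 and 70 against 45 (adjusted p = 4.3e-09 and 3.5e-09, exact binomial test). Of the 13 genes of MLL and its partners, which keep Hox genes active, 6 were called in MEL cells, with 1 in ES-EP (median ratios 2.78 and 1.35). Mll3, a histone methyltransferase, was called in both, with 39 and 82 reads against 5 in MEL cells and 125 and 59 against 40 in ES-EP, and Mll1, which binds Hox promoters, was called in MEL cells with 19 and 68 against 6 and had 80 and 33 against 50 in ES-EP.

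The lists of homeobox relatives, like the Polycomb and MLL lists, are too short to read their counts against the 16.2% (MEL cells) and 11.7% (ES-EP) of all starts called. None of the 9 TALE genes, whose products bind DNA with Hox proteins, was called (median ratios 0.988 and 0.927), and Pbx4 (7 and 33 reads against 13 in MEL cells, 14 and 27 against 37 in ES-EP, which is below input at a ratio of 0.619) and Pknox2 (3 and 9 against 0, 8 and 9 against 13) had the lowest p. None of 13 Hox-linked homeobox genes was called (1.62 and 1.05), with the lowest p at Mnx1 (11 and 18 reads against 2 in MEL cells, 25 and 14 against 19 in ES-EP) and Dlx2 (12 and 23 against 4, 23 and 23 against 24). Of the 6 Caudal and ParaHox genes, Gsx1 was called in ES-EP (27 and 18 reads against 9, adjusted p = 0.0249, exact binomial test) with 16 and 21 against 3 in MEL cells, and Cdx1 had 7 and 19 against 2 in MEL cells and 22 and 17 against 19 in ES-EP. No gene of these lists passed the limma threshold between the cell types, beside 0% of all 22271 starts, so this count does not set the lists apart.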

How the data were processed

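PU.1 ChIP-Seq and input libraries of MEL cells and ES-EP were used. The authors ran them on a GAII instrument, and ELAND (version not given in the sources used here) placed the reads on mm9, where unique alignments with up to 2 mismatches were retained. Each line of the deposited files is 1 read with its position, strand and letters, and none is a measured value, so every count was made here from these lines. The libraries had from 2054667 to 5051235 reads on chromosomes 1 to 19, X and Y. Reads were moved by 70 bp (MEL cells) or 65 bp (ES-EP) to the fragment centre, and repeated positions (1.59% to 9.00% of reads) were kept. Intervals, floors and binomial tests cover counting error only, since repeated reads need not be independent molecules.

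Gene starts came from GENCODE M1 on the same assembly, with records of the same name joined. ChIP and input reads, summed per cell type, were set against each other in an exact binomial test (two-sided), with the null share from library totals (scipy 1.17.1). Cell types were compared with limma 3.58.1 (voom, R 4.3.3), without a replicate block, over starts without a filter and over windows with at least 20 ChIP reads. Adjustment was Benjamini-Hochberg over all features tested. Against input these were starts with at least 1 read and windows with at least 10 reads. Scripts were tested on simulated data. The letters A and B did not pair the cell types.

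Genes named are those called, the highest and lowest ratio in each cluster, the lowest 3 limma p, Hoxa9, Hoxa10 and Hoxb4, the 2 lowest p of each further list, and Sfpi1, and 1 gene that this rule names is not reported here, though it stays in the counts. Calls at wider stretches or other transcript starts were named after their values were seen. The members and lists were chosen with earlier results of these data known. Alternatives were the counted stretch, window grid, repeated positions, null share, read minimum, scaling, replicate block and leaving out each preparation. Sequences were read from the mm9 genome.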

Additional observations from a re-analysis of the deposited data

Results flagged for a closer look

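At 6 of 39 Hox starts (15.4%), beside 13.8% of all starts, both MEL preparations lay on one side of input and both ES-EP preparations on the other, and this difference of differences was not tested. The log2 ratio of ChIP to input in MEL cells minus that in ES-EP was 1.50 at Hoxd13, 1.66 at Hoxb3, 1.65 at Hoxc13 and 1.37 at Hoxc9, where MEL cells lay above input. It was -1.62 at Hoxc6 and -1.62 at Hoxc4, where ES-EP lay above input. None of these starts was called against input in either cell type. Hoxd13 had 12 and 19 reads against 4 of input in MEL cells and 20 and 20 against 29 in ES-EP. Hoxc9 had 16 and 25 against 6 in MEL cells and 10 and 10 against 14 in ES-EP. Hoxb3 had no input read in MEL cells. Among 24 groups of 4 libraries tested over the clusters and the called windows, 0 had a library far from the others.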

How the results depend on the processing

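Against the 0 Hox starts called in MEL cells, 6 were called with 2 kb on each side (beside 16.1% of all starts), 1 of 26 with at least 10 reads (25.1%), 1 gene (at 2 of 75 Hox transcript starts) with each transcript start (16.5% of all such starts) and from 0 to 2 when a preparation was left out (2 without A, beside 24.5%). In ES-EP 1 was called with 250 bp on each side (9.71% of all starts), 1 with 2 kb (13.8%), 1 with 1 read per position and strand (11.1%) and 1 with each transcript start (12.0%). The 6 Hox windows called in MEL cells became 3 on a grid moved by 250 bp (3.29% of all windows), which called none past Hoxc4 or at Hoxc9, 8 of 29 with at least 20 reads (35.8%), with 1 more each near the Hoxc6 start and in Hoxd3, 0 with all windows of at least 1 read tested, and from 3 to 14 without a preparation (14 of 78 without A, beside 14.9%, and 3 of 28 without B, beside 13.1%). The 3 in ES-EP were 3 of 56 with at least 20 reads (28.7%), 1 of them near the Hoxd8 start in place of the Hoxa4 window, and became 1 with at least 1 read and from 2 to 5 without a preparation (5 of 85 without B, beside 18.3%), and the grid moved by 250 bp called windows at Hoxc6 and past Hoxc4 but not at Hoxa4. The 2 windows over 5-fold became 0 with at least 40 ChIP reads and 1 without either preparation. No Hox start or window was called between cell types in any fit, while the count over all starts rose from 0 to 171 with libraries as samples and 326 with median-ratio scaling. Median-ratio scaling moved the median log2 difference of all starts from -0.22 to 0.06. The count over all windows rose from 157 to 1369 (median-ratio scaling), 1365 (libraries as samples) and 2049 (log2 method), and fell to 24 with at least 40 reads and to 1 or 0 without a preparation. The letters of the preparations as a replicate block gave 0 Hox starts and 0 Hox windows, with 5 starts and 10 windows in all, and the deviations of the A preparations correlate at -0.156 over starts and 0.00835 over windows. Crossed letters as a block, added after seeing the data, gave 0 Hox calls, with 1691 starts and 1809 windows in all. ChIP over input in ES-EP was 1.30 in HoxA against input library 1 alone and 0.977 against library 2 (HoxD 1.16 and 1.06). It was 1.13 in HoxD without flanks and 1.10 with 1 read per position, and in HoxB of MEL cells 1.35 and 1.35 under these settings. Without flanks the other MEL ratios were 1.54 in HoxA, 1.39 in HoxC and 1.66 in HoxD, against 1.36, 1.38 and 1.47 with them. Input in HoxA was 0.842 against library 1 alone. The causes were not tested beyond the fewer reads and samples of these settings. The single MEL input library of 4278560 reads limits all MEL ratios, and 500 bp windows mostly hold under 10 reads (12.6% of Hox windows were tested in MEL cells, with 13.9% in ES-EP).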

Other observations

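The clusters also hold 6 microRNA genes, and miR-196 is known to repress Hox transcripts. In 1 kb around each, reads were few. Mir196b had 7 and 14 reads against 2 of input in MEL cells and 4 and 14 against 12 in ES-EP. Mir615 had 9 and 10 against 1 in MEL cells and 5 and 10 against 7 in ES-EP. Mir196a-1 had 6 and 1 against 1 and 4 and 7 against 1, and Mir196a-2 had 3 and 4 against 4 and 6 and 5 against 3. Mir10a and Mir10b had 0 to 2 reads in every preparation. These values were not tested.

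GAGGAAGT lies in 2 of 39 Hox starts (5.13%), Hoxc4 among them, beside 6.99% of all starts. It lies in 3.36% of the Hox windows of 500 bp and 2.90% of all windows of the genome, and over the genome in 26.6% of the MEL windows above input and 30.7% of the ES-EP windows above input. Of the 8 Hox windows called, 1 holds it.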
